A study of Homo sapiens with 6 samples.

Results

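The genes described here are 10 transcripts that have been reported, in other cell systems, as targets of miR-27a or its paralog miR-27b. They are FBXW7, SEMA6A, SEMA6D, NFE2L2, HIPK2, ST14, PINK1, PDPK1, GRB2 and GCA, and every probe that the array files name for one of them was taken, which gave 19 of the 41000 probes and 10 of the 30484 gene names on the array. Their expression was measured in RH36, an embryonal rhabdomyosarcoma cell line without the PAX3/FOXO1 fusion, on one-colour Agilent whole-genome arrays. Cells were transfected with a precursor of miR-27a (pre-miR-27a, 3 arrays) or with a negative control precursor (pre-control, 3 arrays), and the labels call the arrays of a group biological replicates. The labels give 10 nM of precursor and, for the pre-miR-27a cells, 48 hours after transfection. The methods of the study give a higher concentration and an earlier time, and which of these applies to the arrays was not settled. The model is a transient transfection of 1 cell line, and the array has 0 probes named for miR-27a, so the level of the transfected miRNA cannot be checked on it.

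A microRNA guides the Argonaute complex to messenger RNAs, mostly through pairing of its seed, the bases near its 5′ end, with sites in the 3′ untranslated region. Such pairing lowers translation and often shortens the life of the transcript, so that a target can be lower in protein with little or no difference in transcript level, which is all that an array measures. miR-27a is made from a cluster with miR-23a and miR-24, and is known for effects on fat cell differentiation, muscle, blood vessels and tumor growth.

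The mature sequences of the transfected miRNA and of its paralog, from RefSeq (GRCh38.p14), are shown because the published target reports cover both. The miR-27a-3p sequence lies at chr19:13836447-13836467 on the minus strand and the miR-27b-3p sequence at chr9:95085505-95085525 on the plus strand. Capitals mark the seed, bases 2 to 8.
hsa-miR-27a-3p: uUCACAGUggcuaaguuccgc
hsa-miR-27b-3p: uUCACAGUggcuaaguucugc
Both have the same seed and differ at 1 of 21 positions, C19U, with the miR-27a-3p base first and positions counted from 1 at the 5′ end. A site that pairs with the whole seed reads ACUGUGA in the transcript. The untranslated regions of the 10 genes were not analysed here.

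The groups differed in the quality measures of their arrays. Between 69.93% and 73.92% of the 43376 spots were well above background on the pre-control arrays and between 74.14% and 77.98% on those of pre-miR-27a, and 0 spots were saturated. The local background had a median of 74.5 to 76 intensity units on the former and 52.5 to 53 on the latter, and 1559 to 1750 against 3487 to 4153 spots were not found, which the analysis treats as missing. Each group was hybridized on a slide of its own with its own scan, so an effect of the slide and one of the precursor cannot be told apart in any value below. Of the markers of skeletal muscle lineage, 7 of 8 exceeded background clearly on all 6 arrays and MYF5 did so on none. EPCAM, CDH1, PTPRC and PECAM1, which mark epithelial, blood and endothelial cells, were well above background on none, whereas KRT8, KRT18, CD3E and CD14 were on all 6 and CDH5 on 1 pre-control and 2 pre-miR-27a arrays. The arrays measure bulk RNA, in which fewer cells with a transcript and less of it per cell cannot be told apart.

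Across the 10 genes, 1 probe passed the test and it was higher with pre-miR-27a. This was a probe of SEMA6A, 1 of 19 probes or 5.26%, against 7.83% of all 36469 probes tested, 3.95% higher and 3.88% lower (limma, adjusted p under 0.05). None of the 19 was called lower, although 5 had an unadjusted limma p under 0.05, 26.3% of them against 24.8% of all probes. By the brightest probe of each gene the count was 1 of 10, higher, beside 7.4% of all gene names (3.07% higher and 4.33% lower). Regardless of size, 13 probes were higher and 6 lower. The 13 include GCA and SEMA6D probe 2, which were well above background on 0 of 6 arrays. The median log2 difference was 0.16 for the 19 probes and −0.02 for all probes tested. The median absolute difference was 0.25 for the 19 probes and 0.21 for all. The groups did not overlap for 7 of the 19 probes (36.8%), 5 higher and 2 lower, beside 32.5% of all probes, 14.8% higher and 17.8% lower. Those shares lie near the background of the whole array, and the 10 genes are not set apart from it by them. Of the 6 genes with several probes, 5 had all of them on one side, FBXW7 being the exception. Over the 6834 gene names with several probes, 57.4% had all on one side. The 5 include SEMA6D, for which the shared sign is not informative, as its probe 2 exceeded background clearly on 0 of 6 arrays. That probe read 4.11 on pre-miR-27a array 3 and 2.02 to 2.07 on the rest. Its difference took the opposite sign, −0.24, with scaling at the 75th percentile.

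**Figure D1:**
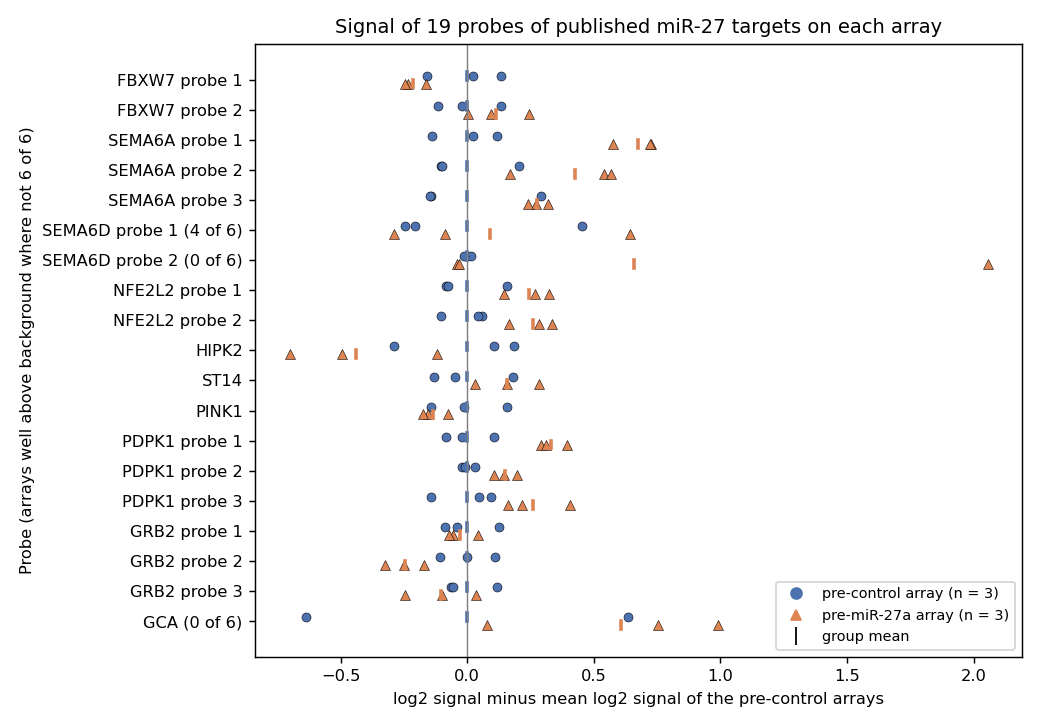
Signal of each of the 19 probes on each array, as log2 signal minus the mean log2 signal of the 3 pre-control arrays (circles, pre-control; triangles, pre-miR-27a; vertical ticks, group means). The triangles of SEMA6A probe 1, NFE2L2 probe 2 and the 3 PDPK1 probes lie to the right of all their circles. Those of FBXW7 probe 1 and GRB2 probe 2 lie to the left. SEMA6D probe 2 and GCA were well above background on 0 of 6 arrays.

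The plot of the signal on each array shows that 16 probes, of 8 genes, exceeded background clearly on all 6 arrays, and 10 of them were higher and 6 lower with pre-miR-27a. SEMA6D and GCA account for the other 3 probes. All levels below are quantile-normalized log2 signals of 1 probe, differences are pre-miR-27a minus pre-control on the log2 scale with the limma standard error (SE), and positions are those of the array design (hg18). The levels of different probes cannot be compared with each other.

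FBXW7 is the F-box subunit that recognizes phosphorylated cyclin E, MYC, JUN and NOTCH proteins for an SCF ubiquitin ligase. Its brighter probe, probe 1 (chr4:153461908-153461967), read 11.72, 11.54 and 11.83 on the pre-control arrays and 11.53, 11.47 and 11.45 on the pre-miR-27a arrays. Every pre-miR-27a array lay below every pre-control array, but the lowest pre-control array and the highest pre-miR-27a array almost touched. The difference was −0.21 (SE 0.0996, 95% interval −0.46 to 0.03, 0.863-fold), which did not pass the test (limma adjusted p = 0.258). Probe 2 (chr4:153463269-153463328), in the neighbouring stretch of the gene, read 6.87, 6.96 and 7.12 against 6.99, 7.23 and 7.08. Here the groups overlapped and the sign was the opposite, 0.11 (SE 0.107, limma adjusted p = 0.575), although the files list the same 3 transcripts for both probes. The direction of FBXW7 therefore rests on which probe is read, and the interval of probe 1 runs from −27.3% to 2.37% as a change in signal.

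SEMA6A and SEMA6D are transmembrane semaphorins that bind plexin A receptors and guide axons, migrating neurons and vessels. SEMA6A probe 1 (chr5:115807111-115807136, the brightest) read 11.37, 11.12 and 11.28 on the pre-control arrays and 11.83, 11.98 and 11.98 on the pre-miR-27a arrays. The design gives this probe a span of 26 bases, against 60 for the other SEMA6A probes. The groups stood well apart, with means of 11.26 ± 0.13 and 11.93 ± 0.086 (SD, n = 3 each). SEMA6A thus rose by 0.68 (SE 0.1, 95% interval 0.43 to 0.93, 1.6-fold, limma adjusted p = 0.024). As the groups did not overlap, all 3 pairs of same-numbered arrays were higher too, by 0.46, 0.87 and 0.70. The exact permutation test on this probe alone gave a two-sided p of 0.1, the smallest that 3 against 3 arrays allow.

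The other probes of SEMA6A had smaller differences of the same sign. Probe 2 (chr5:115807689-115807748) read 8.76, 8.77 and 9.07 against 9.03, 9.41 and 9.43, a difference of 0.43 (SE 0.153, limma adjusted p = 0.162), and 1 pre-control array lay above the lowest pre-miR-27a array. Probe 3 (chr5:115810187-115810246) read 8.63, 8.63 and 9.07 against 9.05, 9.01 and 9.09, a difference of 0.28 (SE 0.141, limma adjusted p = 0.295). On both probes pre-control array 3 was the high control, and all 3 same-numbered pairs were higher with pre-miR-27a. On probe 3 the pair numbered 3 differed by only 0.03. The mean of the 3 probes differed by 0.46, with an adjusted p of 0.0811 in the limma fit. The call of probe 1 was lost when any single array other than pre-control array 1 was left out. Its limma adjusted p was then 0.0704 and 0.0668 without pre-control arrays 2 and 3, and 0.0786, 0.0848 and 0.0878 without pre-miR-27a arrays 1, 2 and 3, while the difference stayed between 0.61 and 0.73. With 1 array fewer the number of calls over all probes also dropped, from 2856 to between 0 and 1276.

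SEMA6D was near the limit of detection. Its probe 1 (chr15:45853365-45853424) was well above background on 1 of 3 pre-control and 3 of 3 pre-miR-27a arrays and read 4.84, 4.88 and 5.54 against 5.00, 4.80 and 5.73. The array numbered 3 was the highest in both groups, the groups overlapped, and the difference was 0.09 (SE 0.311, limma adjusted p = 0.897). Probe 2 (chr15:45843465-45843524) did not reach that mark on any array, and no fold is given.

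NFE2L2, also called NRF2, is the transcription factor that switches on antioxidant and detoxifying genes, and is held in check by KEAP1. Probe 1 (chr2:177803523-177803582) read 12.83, 12.59 and 12.60 on the pre-control arrays and 12.94, 12.99 and 12.82 on the pre-miR-27a arrays. Pre-control array 1 lay just above the lowest pre-miR-27a array, and the difference was 0.25 (SE 0.103, 95% interval −0.01 to 0.50, limma adjusted p = 0.216). Probe 2 (chr2:177837664-177837723), which the files assign to a partial NFE2L2 messenger RNA, read 9.07, 9.23 and 9.22 against 9.46, 9.51 and 9.34. Its groups did not overlap, and the difference was of the same size, 0.26 (SE 0.0895, limma adjusted p = 0.148). Both probes were higher in all 3 same-numbered pairs, which for probe 2 follows from the lack of overlap, and neither passed the test. The interval of probe 1 runs from −0.675% to 41.5%.

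Of the kinases, HIPK2, a nuclear kinase that phosphorylates p53 after DNA damage, had the lowest estimate of the 16 measured probes. Its probe (chr7:138907924-138907983) read 12.09, 12.49 and 12.57 on the pre-control arrays and 11.68, 12.26 and 11.89 on the pre-miR-27a arrays. Pre-control array 1 fell among the pre-miR-27a values, so the groups overlapped, while within same-numbered pairs the differences were −0.41, −0.23 and −0.68. The mean difference was −0.44 (SE 0.199, 95% interval −0.93 to 0.05, 0.738-fold), with a limma adjusted p of 0.246 and an exact permutation p of 0.2. A fit with the replicate block gave a limma adjusted p of 0.0817. The interval spans −47.6% to 3.88%, on the log2 scale the widest of the probes measured on all arrays.

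PINK1 is the mitochondrial kinase that marks damaged mitochondria for removal together with Parkin. It read 12.27, 12.40 and 12.57 on the pre-control arrays and 12.26, 12.24 and 12.34 on the pre-miR-27a arrays (chr1:20849912-20849971). The groups overlapped at the lower end of the controls. Within same-numbered pairs the differences were −0.01, −0.16 and −0.23, so the pair numbered 1 hardly differed. The mean difference of −0.13 (SE 0.102, limma adjusted p = 0.48) did not pass the test. Its interval runs from −23.6% to 8.56%.

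PDPK1, or PDK1, phosphorylates the activation loop of AKT and related kinases. Its brightest probe, probe 1 (chr16:2585847-2587178, a span of 1332 bases in the design), read 11.43, 11.62 and 11.49 against 11.81, 11.91 and 11.83. All pre-miR-27a arrays lay above all pre-control arrays, with means of 11.52 ± 0.0976 and 11.85 ± 0.0547 (SD, n = 3 each) and a difference of 0.33 (SE 0.0855, 95% interval 0.12 to 0.54, 1.26-fold). The limma adjusted p was 0.0768, and the fit with the replicate block put it at 0.0439, under the threshold, as did a variance trend with robust estimation (0.0496). That made 2 of 19 probes called with the block, beside 14.9% of all probes. Probe 2 (chr16:2592576-2592635) read 11.04, 11.09 and 11.05 against 11.20, 11.25 and 11.16, a difference of 0.15 (SE 0.0709, limma adjusted p = 0.271). Probe 3 (chr16:2571646-2571705) read 8.93, 9.17 and 9.12 against 9.24, 9.48 and 9.29, a difference of 0.26 (SE 0.109, limma adjusted p = 0.213). The groups did not overlap on any of the 3 probes, from which it follows that each was higher in all 3 same-numbered pairs. A near-identical copy of PDPK1 lies on the same chromosome, and how far the probes separate it from PDPK1 was not tested.

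GRB2 is the adaptor that links activated receptors, through its SH2 domain, to SOS and RAS. Probe 1 (chr17:70825930-70825989), printed in 10 spots on each array, had an SD between spots of 0.0346 to 0.0478. It read 13.67, 13.46 and 13.50 against 13.59, 13.49 and 13.47, and the difference was −0.03 (SE 0.0907, limma adjusted p = 0.892), with an interval from −16% to 14.7%. Probe 2 (chr17:70826457-70826516) read 11.57, 11.35 and 11.46 against 11.29, 11.21 and 11.14, with no overlap and a difference of −0.25 (SE 0.0922, limma adjusted p = 0.174). Probe 3 (chr17:70833679-70840417) read 10.79, 10.80 and 10.98 against 10.61, 10.76 and 10.89, a difference of −0.10 (SE 0.108, limma adjusted p = 0.618). The 3 probes shared the sign and none passed the test.

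ST14, or matriptase, is a membrane serine protease of epithelia that activates other proteases and growth factors. It was well above background on all 6 arrays, and of the 4 epithelial markers KRT8 and KRT18 were so too, while EPCAM and CDH1 were on none. It read 6.31, 6.62 and 6.40 on the pre-control arrays and 6.73, 6.47 and 6.60 on the pre-miR-27a arrays (chr11:129585025-129585084), with overlapping groups and a difference of 0.16 (SE 0.12, limma adjusted p = 0.483). GCA, grancalcin, is a calcium-binding protein of the penta-EF-hand family, abundant in neutrophils and macrophages. Its probe (chr2:162925415-162925474) was found on 5 of 6 arrays and well above background on none, so it has only an upper bound in both groups and no fold is given.

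**Figure D2:**
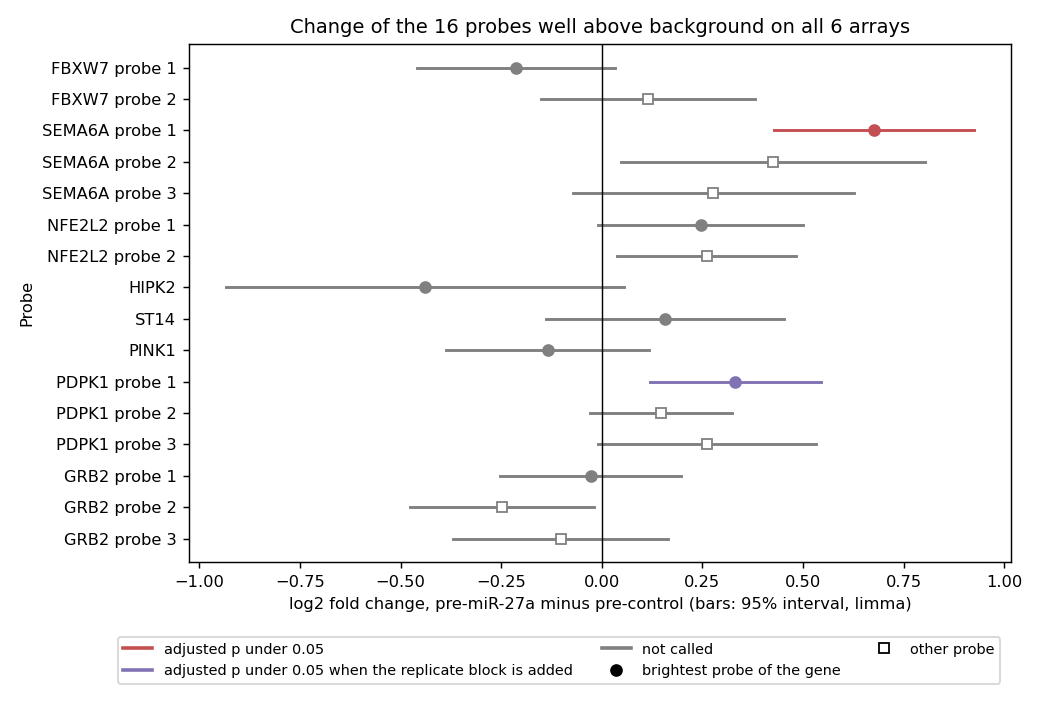
Log2 fold change (pre-miR-27a minus pre-control) of the 16 probes well above background on all 6 arrays, with the 95% interval of limma as bars (circles, brightest probe of the gene; squares, other probes). The interval of SEMA6A probe 1 runs from 0.43 to 0.93, PDPK1 probe 1 passes when the replicate block is added (adjusted p = 0.0439), and FBXW7 is the gene with probes on both sides of 0.

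The plot of the changes with their intervals sets the probes of each gene side by side. Intervals of 4 probes lay above 0 (SEMA6A probes 1 and 2, NFE2L2 probe 2 and PDPK1 probe 1) and that of GRB2 probe 2 lay below 0, before adjustment for the number of probes on the array. The probes of SEMA6A, NFE2L2, PDPK1 and GRB2 each kept to one side of 0. For the genes with lower estimates, HIPK2, FBXW7 probe 1, PINK1 and GRB2, the low bounds of the intervals lay between −47.6% and −16%, which limit how large a loss of transcript these intervals allow.

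The genes that work with the 10 members were taken as 9 lists of 102 genes, of which 96 were tested by their brightest probe. By that probe JUN and WSB1 rose and no listed gene fell, which is 2.08% of the 96 against 7.4% of all gene names tested. Over all lists 44 genes were higher and 52 lower, with a median difference of −0.02 beside −0.04 for all gene names. JUN, a transcription factor and a substrate of the FBXW7 ligase, read 11.54, 11.02 and 11.17 on the pre-control arrays and 12.60, 12.26 and 12.20 on the pre-miR-27a arrays. It rose by 1.11 (SE 0.18, 2.16-fold, limma adjusted p = 0.0274), and the groups stood apart. WSB1, a ubiquitin ligase subunit known to act on HIPK2, read 12.67, 12.46 and 12.79 against 13.39, 13.44 and 13.69, and rose by 0.87 (SE 0.131, 1.82-fold, limma adjusted p = 0.0247). Both were called under every way of processing all 6 arrays. Leaving out any array ended the call of WSB1 (limma adjusted p 0.0559 to 0.0818), and any array but pre-control array 1 that of JUN (0.0783 to 0.0907).

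**Figure D3:**
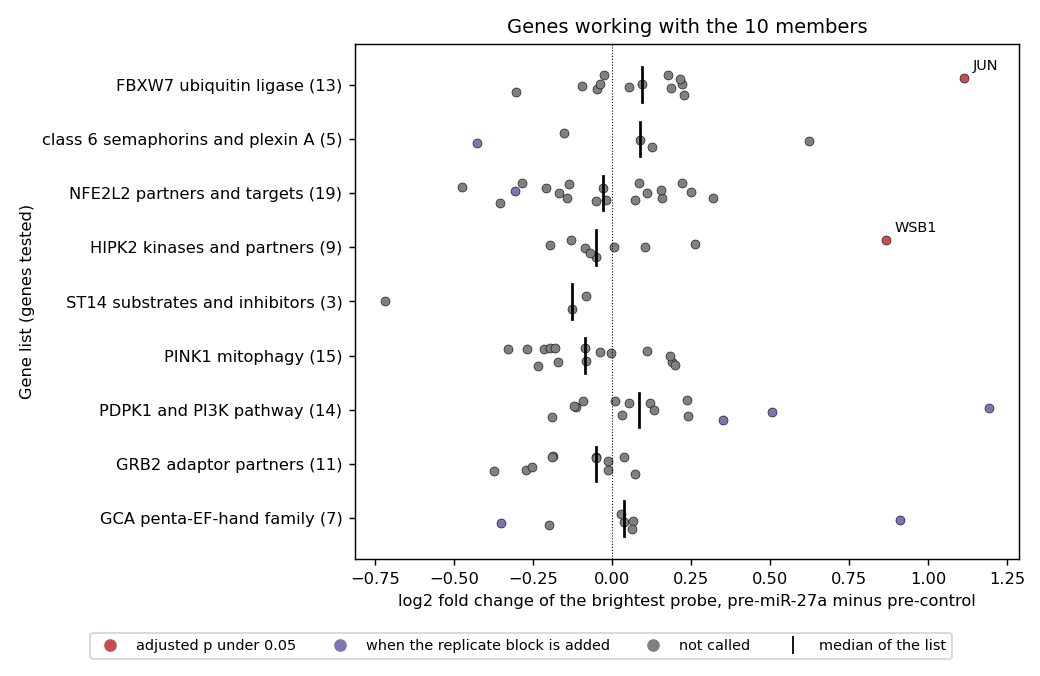
Log2 fold change of the brightest probe of each of 96 genes in 9 lists of genes that work with the members (points; vertical bars, list medians; number of genes tested in parentheses). JUN and WSB1 are the genes called, at 1.11 and 0.87, 7 more pass when the replicate block is added, and the medians of the lists lie between −0.13 and 0.09.

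In the plot of the pathway genes, the FBXW7 ligase list had 8 of 13 genes higher and 5 lower, with JUN called and cyclin E (CCNE1) at −0.03 (SE 0.111, limma adjusted p = 0.919). Of the class 6 semaphorins and plexin A receptors, 3 of 5 were higher and 2 lower, and 0 passed the test, while with the replicate block SEMA6C passed at −0.43 (limma adjusted p = 0.104 without and 0.0371 with it). Among the NFE2L2 partners and targets 8 of 19 were higher and 11 lower, with 0 called, KEAP1 at 0.07 and the target NQO1 at −0.28 (limma adjusted p = 0.616 and 0.295). Other targets in the list went the other way, GCLM at 0.32 and GCLC at 0.25 (limma adjusted p = 0.165 and 0.194), also without passing the test. The brightest probe of FTL, at −0.31, passed with the block (limma adjusted p = 0.0561 without and 0.0479 with it), with scaling at the 75th percentile (0.0498) and with a variance trend (0.023). The HIPK2 list had 4 of 9 higher and 5 lower, with WSB1 called. The ST14 list (3 tested, 0 higher), the mitophagy list of PINK1 (15 tested, 4 higher), the GRB2 partners (11 tested, 2 higher) and the penta-EF-hand list of GCA (7 tested, 5 higher) had 0 genes called. The last list includes LCP1, an actin-bundling protein that binds GCA and is not of that family, which is 1 of the 5 but was well above background on 0 arrays. With the block LCP1 passed, with no fold given for that reason, and so did CAPNS1, the small calpain subunit, at −0.35 (limma adjusted p = 0.152 without and 0.042 with it). The PI3K list around PDPK1 had 10 of 14 higher and 0 called, while with the replicate block 3 passed. They included PIK3R1, a regulatory subunit of PI3 kinase (difference 1.19, limma adjusted p = 0.0724 without and 0.0334 with the block), and PIK3CB, a catalytic subunit (0.51, 0.23 and 0.036). PIK3R1 also passed with normexp background correction (limma adjusted p = 0.0362) and among probes well above background on every array of a group (0.0418). With the block 9 of the 96 passed, 6 higher and 3 lower, where 14.1% of all gene names did, 5.97% higher and 8.1% lower.

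Over all 164 probes of the listed genes, 4 were called higher and 7 lower, 6.71% in all, beside 7.83% of all probes on the array (3.95% higher and 3.88% lower), so the share over the lists is not above that of the array. The ferritin subunits, iron-storage proteins and known NFE2L2 targets, held 5 of the 7 lower calls and are named after their values were seen. FTL had 3 of 3 probes lower, 2 of them called, at −0.42 and −0.41 (limma adjusted p = 0.0285 and 0.0286). FTH1 had 5 of 5 lower and 3 called, at −0.81, −0.47 and −0.37 (limma adjusted p = 0.019, 0.0326 and 0.0487). The brightest FTH1 probe differed by −0.14 without passing the test (limma adjusted p = 0.408), and FTH1 has near-identical copies in the genome that its probes may share. All 8 ferritin probes were lower under each setting run, but with 1 array left out none was called, except 1 FTH1 probe without pre-control array 1. The other 2 lower calls were single probes of MYC, an FBXW7 substrate, at −1.07 (limma adjusted p = 0.0195, found on 5 of 6 arrays), and of USP30, a mitochondrial deubiquitinase, at −0.42 (0.0363). The brightest MYC probe was at −0.09 (limma adjusted p = 0.787) and the brightest USP30 probe at −0.0037 (0.985).

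**Figure D4:**
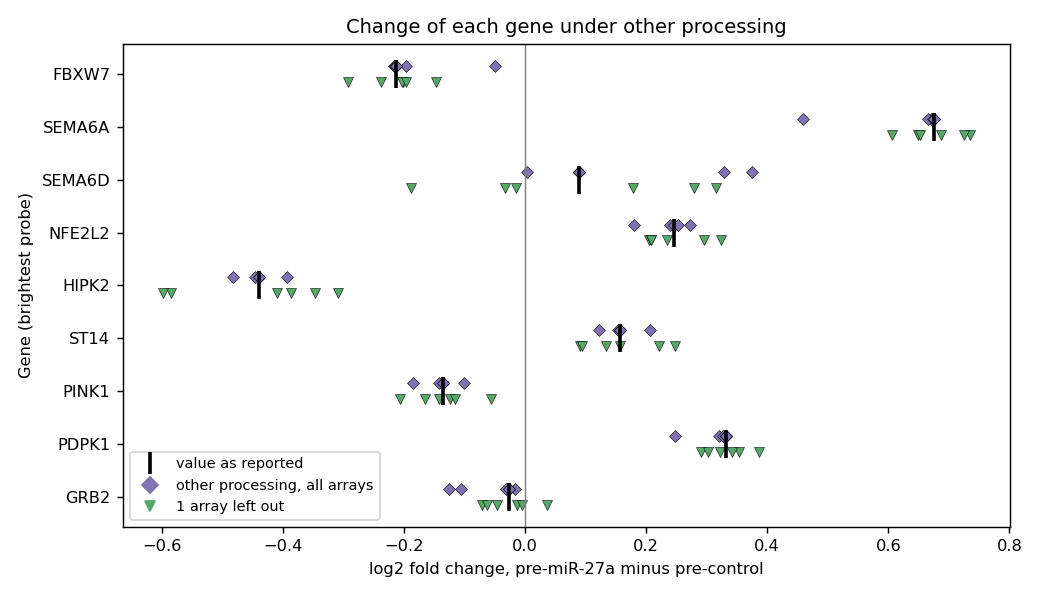
Log2 fold change of each gene (brightest probe, or the mean of its probes in 1 setting) as reported (black bars), under other processing of all 6 arrays (diamonds) and with 1 array left out (triangles). SEMA6A stays between 0.46 and 0.73, HIPK2 between −0.60 and −0.31, SEMA6D and GRB2 have values on both sides of 0, and GCA is not drawn because it was not well above background on any of the 6 arrays.

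The plot of the changes under other processing shows how far each estimate moves. By their brightest probe, FBXW7, HIPK2 and PINK1 were lower and SEMA6A, NFE2L2, ST14 and PDPK1 higher under every setting run. SEMA6D and GRB2 took both signs when an array was left out.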

How the data were processed

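Expression was measured on 6 one-colour (Cy3) Agilent arrays. The authors deposited spot intensity values from Feature Extraction 10.5.1.1, background-subtracted within each array and not normalized between arrays, with quality flags per spot (other columns), and a table of log2 values that the authors had quantile normalized. That table holds 33169 probes, with column medians of 9.131 to 9.215 and a median absolute difference of 0.00425 (largest 1.05) from the values computed here, and contains 18 of the 19 probes.

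Here control spots were removed, log2 processed intensity was quantile normalized, spots not found were set to missing, and spots of a probe were averaged. Probes missing on more than 1 array were removed, leaving 36469 of 41000, and all 19 remained. Groups were compared with R 4.3.3 and its package limma 3.58.1, with Benjamini-Hochberg adjustment over all probes and a threshold of 0.05. The SAM analysis named in the methods of the study was replaced by limma, which was tested on simulated data. The simulated noise was independent between probes and arrays, without pairs or a slide effect, so the simulation does not cover these. A gene was represented by its brightest probe. Of each list, up to 3 called genes with the largest differences were to be named. The number of arrays limits the precision.

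Whether the replicate numbers pair the arrays was checked by correlating deviations from the group means over 31717 probes. Arrays with the same number correlated at 0.396, 0.456 and 0.409, and those with different numbers at −0.266 to −0.123. Each group was centred on its own mean, so positive values for equal numbers pull the others down. The negative values are therefore no separate evidence of pairing. On the ground of the same-number values the arrays were treated as pairs in a fit with the replicate block. What makes arrays of equal number alike was not tested. The results section of the study also describes its SAM analysis as paired. The main fit did not use the pairing, and the block was run as an alternative to it. Values are from the main fit unless another setting is named. The other alternatives were scaling at the 75th percentile, normexp (offset 50), 2 other filters, the deposited log2 values, a variance trend with robust estimation, the mean of all probes, and leaving out each array. The members and gene lists were chosen with earlier results of these data known. Of the 102 listed genes, 96 were tested, and SOS2 was not matched by name. PLXNA3, HIPK3, SPINT1 and F2RL1 were among those removed by the filter. Some listed genes are not reported here by name. Sequences were taken from RefSeq.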

Additional observations from a re-analysis of the deposited data

How the results depend on the processing

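The call of SEMA6A probe 1 held under each of the other 7 ways of processing that probe with all arrays (adjusted p 0.00964 to 0.0411), and was lost with the mean of the gene's probes. The 1 call among the 19 probes became 2 with the replicate block and 2 with a variance trend and robust estimation, PDPK1 probe 1 being the addition (limma adjusted p = 0.0439 and 0.0496). The count of member genes likewise became 2 in both, and 0 with the mean of all probes. The 2 pathway genes called became 9 with the replicate block and 6 with the mean of all probes (4 higher, 2 lower). The replicate block changed no other call among the 10 genes. With 1 array left out, the counts ran from 0 to 1 for member probes, 0 to 1 for member genes and 0 to 1 for pathway genes, the value of 1 in each case without pre-control array 1. GCA was at background on all arrays and has no direction, and its values, −0.035 with normexp and −0.0559 in the deposited table and −0.0276 to 1.24 with 1 array left out, are given as numbers alone. SEMA6D ranged from −0.19 to 0.32 and GRB2 from −0.0709 to 0.036 with 1 array left out. The cause of these changes was not tested. Scaling at the 75th percentile moved the median of all probes from −0.02 to −0.09 and the share of calls that were higher from 50.4% to 39.2%, and turned the sign of no member gene. SEMA6D and GCA lie near or under background, and differences between them and 0 were not detectable with 3 arrays a group.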
